A study of Mus musculus with 6 samples.

Results

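The genes described here are 10 that build or mark the contractile apparatus of muscle: the actins Acta1, Acta2 and Actg2, the thin-filament proteins Cnn1, Tagln and Smtn, the myosin heavy chain Myh11 and its activating kinase Mylk, the intermediate filament protein Des, and the kinase Dmpk. They were chosen by name: every probe set with 1 of these symbols as its only annotated gene was taken, which gave 10 probe sets, 1 per gene, of 12422 that were not controls; those with a single symbol covered 8251 genes. All 10 were above the expression floor on every array where they were measured and so were among the 7731 probe sets analysed. The RNA came from whole uterus of wildtype 129/SvImJ females, 10 to 16 weeks old, whose ovaries had been removed 14 days before. The reference mice received no injection (0 h), and the others were killed 6, 12, 15, 18 or 24 h after 0.2 mg progesterone in 0.1 mL sesame oil under the skin. Each of the 6 arrays held 1 pool of 8 uterine horns from 4 mice, so each time is 1 array, and their number limits the precision. All groups share the removal of the ovaries. Mice given oil alone were not analysed here, and all differences from 0 h use 1 common reference array.

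The uterine wall holds layers of smooth muscle, the myometrium, around a stroma and an epithelium. Smooth muscle shortens when a myosin light chain kinase activates myosin, whose heads then pull on actin filaments carrying calponin, transgelin and smoothelin. Many genes of this apparatus carry CArG boxes, the DNA element of serum response factor, whose coactivators couple it to the muscle program. Progesterone is known for keeping the myometrium quiet in pregnancy, and Acta1, the actin of skeletal muscle, is known to be expressed at low levels in some smooth muscle too.

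The start-site windows of Acta1, Acta2 and Dmpk are shown because Acta1 and Dmpk were the members that passed a test below, while Acta2, the smooth muscle actin closest to Acta1 in kind, did not. The sequences are RefSeq's for GRCm38.p6, from 250 bases before to 50 after the annotated start, and capitals mark the CArG box in its strict form or with 1 centre letter free.
Acta1 (chr8:123894726-123895025, minus strand): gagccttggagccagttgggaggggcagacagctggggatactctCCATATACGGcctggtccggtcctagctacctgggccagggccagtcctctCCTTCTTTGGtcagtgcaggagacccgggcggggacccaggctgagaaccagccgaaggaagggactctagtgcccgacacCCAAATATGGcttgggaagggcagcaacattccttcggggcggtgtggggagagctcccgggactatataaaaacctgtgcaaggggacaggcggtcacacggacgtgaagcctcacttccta
Acta2 (chr19:34255324-34255623, minus strand): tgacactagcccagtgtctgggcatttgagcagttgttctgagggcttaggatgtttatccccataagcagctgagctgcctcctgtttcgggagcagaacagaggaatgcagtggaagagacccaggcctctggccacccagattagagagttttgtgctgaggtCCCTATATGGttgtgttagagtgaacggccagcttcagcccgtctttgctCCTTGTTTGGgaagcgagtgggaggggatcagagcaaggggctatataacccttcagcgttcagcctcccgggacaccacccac
Dmpk (chr7:19083608-19083907, plus strand): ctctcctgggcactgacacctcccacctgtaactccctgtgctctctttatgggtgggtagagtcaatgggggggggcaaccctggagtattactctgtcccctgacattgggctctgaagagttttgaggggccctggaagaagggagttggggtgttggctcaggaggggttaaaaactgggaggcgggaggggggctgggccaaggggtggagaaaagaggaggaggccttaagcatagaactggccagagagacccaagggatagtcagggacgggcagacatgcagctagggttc
The Acta1 window held 1 strict CArG box, CCAAATATGG, whose first base lay 73 bases before the start, and CCATATACGG and CCTTCTTTGG in the looser form at 205 and 154 bases. In Acta2 the looser form was found as CCCTATATGG and CCTTGTTTGG, beginning 84 and 34 bases before the start. Windows were at hand for 7 of the 10 members, the others being Actg2, Myh11 and Tagln. Of the 7, Acta1 alone held the strict form, which occurred in 1.63% of 32851 windows of this length, and Acta1 and Acta2 held the looser form, found in 9.98%. The CArG box reads the same class of letters on both strands, so each strand gives the same matches, and every strict match is also a looser one. None of the 7 windows held ACANNNTGT, the core of the steroid receptor element, against 6.85% of all windows. TATAAA, searched on both strands, stood in Acta1 alone, 7 bases before the start, and in 13.6% of all windows. A match of letters is not a bound site, and its absence concerns these windows only.

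Values are deposited log2 expression, so a difference of 1 is 2-fold. The median per array lay between 7.12 and 7.22, and the floor was 6.60, the 40th percentile of all values. Levels of different probe sets cannot be compared with each other, since each probe set has its own response. A probe set of the smooth muscle myosin Myh11 was between 11.02 and 11.78 and one of the epithelial keratin Krt8 at 10.5 at 0 h, so muscle and epithelium, both parts of the labelled uterus, gave signal. In whole tissue, a change in the share of muscle cells and a change in RNA per muscle cell cannot be told apart.

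Acta1 was higher than at 0 h on all 5 progesterone arrays, as were Acta2, Des, Mylk and Dmpk by smaller differences. Only Acta1 passed the limma comparison of the progesterone arrays against 0 h. Its log2 values were 9.16 at 0 h and 11.04, 11.20, 11.68, 11.71 and 11.69 at 6, 12, 15, 18 and 24 h. The 0 h array is the low one, and the 5 progesterone values lie within 0.67 of each other in 2 levels, 6 and 12 h below 15 to 24 h. The differences from 0 h were 1.88, 2.04, 2.52, 2.55 and 2.53, or 3.67-, 4.11-, 5.74-, 5.86- and 5.77-fold. Ranked from the highest, these differences stood 16th of 7719 probe sets at 6 h, 14th of 7722 at 12 h, 7th of 7712 at 15 h, 4th of 7705 at 18 h and 5th of 7700 at 24 h. With limma, the 5 progesterone arrays against 0 h gave a rise of 2.30 ± 0.27 (SE; adjusted p = 0.0081), which is 4.94-fold. Acta1 was the 1 member of 10 called in this comparison, in which 0.893% of 7724 probe sets were called higher and 1.8% lower. The adjusted p stayed between 0.0018 and 0.032 with each progesterone array left out, and was 0.048, just under the threshold, with no filter on low values. The test measures spread by how the 5 times differ and assumes that the lone 0 h array varies likewise.

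The step to 6 h made up most of the Acta1 difference. From 6 h to the mean of 18 and 24 h Acta1 was higher by a further 0.66. The linear slope over the 6 arrays was 2.36 ± 0.51 per 24 h (limma adjusted p = 0.092). It was 0.99 ± 0.25 with the 0 h array left out (adjusted p = 0.085) and 3.19 without 24 h (adjusted p = 0.053), and none of these passed. On log2 of hours plus 1, which spreads the early times, the trend passed (limma adjusted p = 0.0024), as did that of Des; 1.06% of 7731 probe sets were called higher in that fit.

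**Figure D1:**
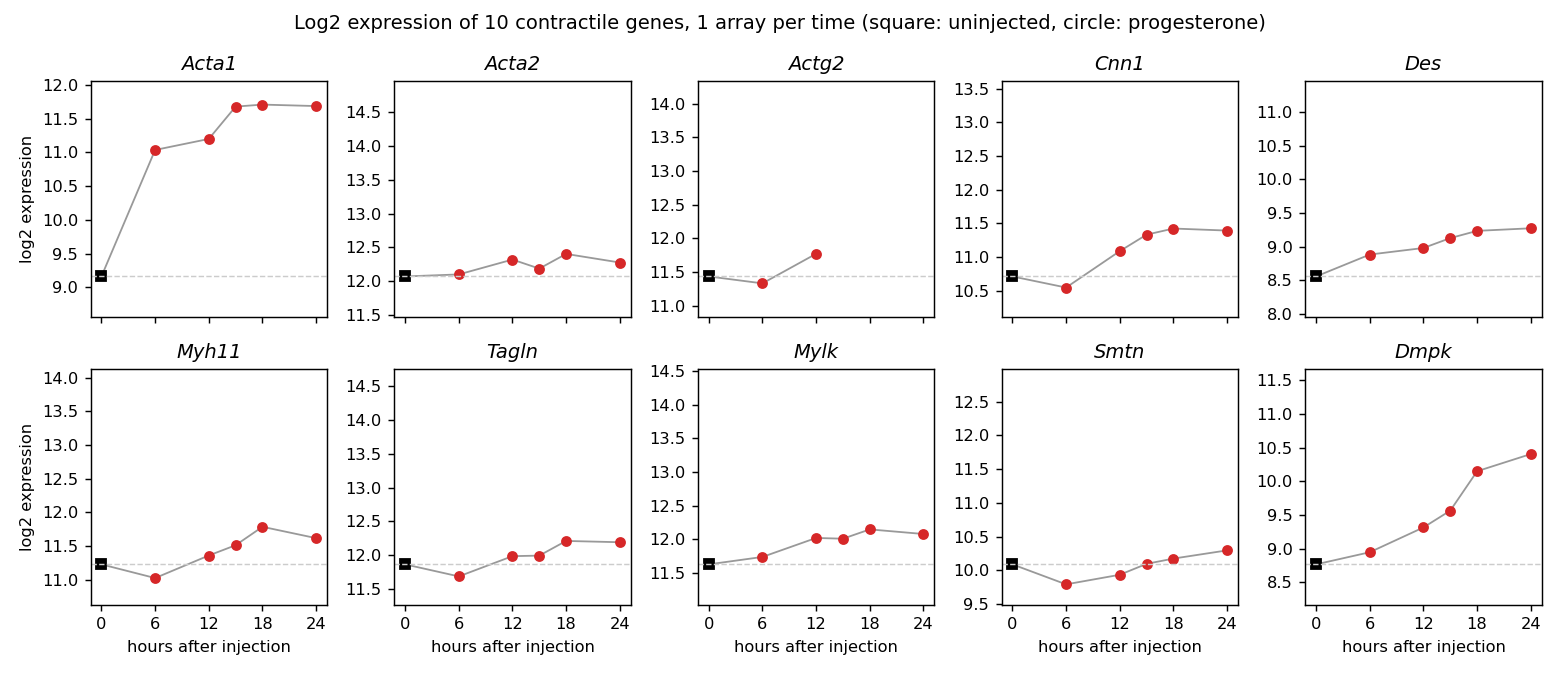
Log2 expression (y axis) of the 10 genes against hours after injection (x axis), 1 array per point; the square is the uninjected 0 h array, circles are progesterone arrays, the dashed line marks the 0 h value, and every panel spans the same log2 range. Acta1 goes from 9.16 to between 11.04 and 11.71, Dmpk climbs to 10.40 at 24 h, and Actg2 has values at 0, 6 and 12 h.

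The other actins did not pass either test. Acta2, the main actin of vascular and uterine smooth muscle, had log2 values of 12.07, 12.10, 12.32, 12.18, 12.40 and 12.27 at 0, 6, 12, 15, 18 and 24 h. Its progesterone values lay just above 0 h, by 0.03 to 0.33, and the mean difference of 0.19 ± 0.13 did not pass (limma adjusted p = 0.49). At the same times Acta1 exceeded Acta2 in its difference from 0 h by between 1.79 and 2.40 (log2). Actg2, the actin of enteric and other visceral smooth muscle, was measured at 0, 6 and 12 h, with log2 values of 11.43, 11.33 and 11.77, and has no value at 15, 18 and 24 h. Its fits therefore rest on 3 arrays with 1 residual degree of freedom, and its mean difference of 0.12 ± 0.22 did not pass (limma adjusted p = 0.83). The suffix of its probe set marks probes shared within a sequence family. Muscle actins are near-identical as proteins, and how far the 3 actin probe sets detect each other's transcripts was not tested. Beside them, the cytoplasmic actins Actb and Actg1 had mean differences of 0.16 (0.34 on a second Actb probe set) and 0.09, and the cardiac actin Actc1, also on a family probe set, had differences of 0.17, 0.77, 0.65, 1.08 and 0.89 at 6, 12, 15, 18 and 24 h without passing (mean 0.71 ± 0.29, limma adjusted p = 0.23).

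Dmpk, the kinase whose human counterpart carries the repeat expansion of myotonic dystrophy, went up in steps over the day. Its log2 values were 8.77, 8.95, 9.32, 9.56, 10.15 and 10.40 at 0, 6, 12, 15, 18 and 24 h. Each array stood above the one before, from a difference from 0 h of 0.18 at 6 h to 1.38 at 18 h and 1.64 at 24 h, the last being 3.11-fold. In the trend over hours Dmpk rose by 1.76 ± 0.21 per 24 h (SE, limma adjusted p = 0.032), the one member of 10 called there, where 0.194% of 7731 probe sets were called higher and 0.116% lower. By unadjusted p it stood 7th among all probe sets. Without the 0 h array the slope was 2.08 ± 0.24 per 24 h (adjusted p = 0.016), so the trend does not rest on that array; 1.02% of 7729 probe sets were called higher in that fit. Without 6, 12, 15, 18 or 24 h the slopes lay between 1.66 and 1.79, and the adjusted p was 0.082, 0.086, 0.10, 0.16 and 0.054. Against 0 h as a group, the mean difference of 0.91 ± 0.48 did not pass (limma adjusted p = 0.35).

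**Figure D2:**
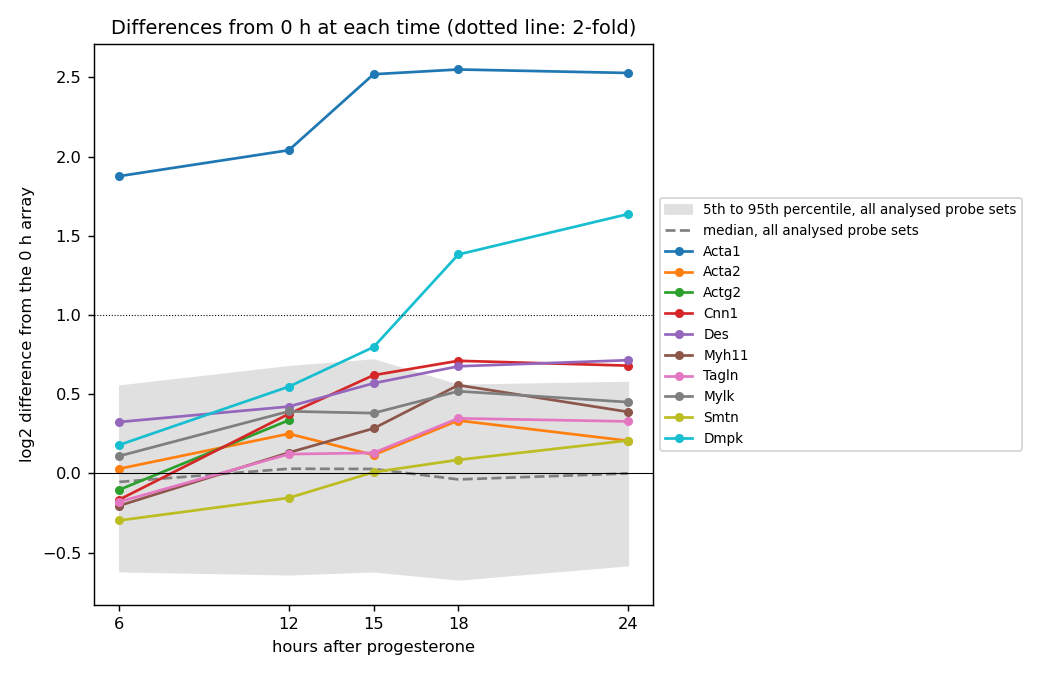
Log2 difference from the 0 h array (y axis) at 6 to 24 h after progesterone (x axis) for each gene, with the 5th to 95th percentile of all analysed probe sets in grey and their median dashed. Acta1 lies at 1.88 or more at every time, Dmpk crosses 2-fold (dotted line) between 15 and 18 h, and the other 8 reach at most 0.71.

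At least 2-fold higher than at 0 h was 1 member, Acta1, at 6, 12 and 15 h, and 2, Acta1 and Dmpk, at 18 and 24 h. Over all analysed probe sets 1.41%, 1.83%, 2.05%, 1.14% and 1.06% were 2-fold higher at 6, 12, 15, 18 and 24 h. No member was 2-fold lower at any time, against 1.1%, 1.75%, 1.58%, 1.8% and 1.39% of all. These single-time differences have no replicate check.

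Of the thin-filament proteins, Cnn1, or calponin, which restrains myosin on actin, had log2 values of 10.71, 10.55, 11.09, 11.33, 11.42 and 11.39 at 0, 6, 12, 15, 18 and 24 h. It was lowest at 6 h and 0.86 higher on the mean of 18 and 24 h. Its slope of 0.93 ± 0.21 per 24 h did not pass (limma adjusted p = 0.098). Tagln, or transgelin, an actin-binding protein used as a marker of smooth muscle, had 11.86, 11.68, 11.98, 11.99, 12.21 and 12.19 at those times. It too was lowest at 6 h, and its later values exceeded 0 h by 0.12 to 0.35. Smtn, or smoothelin, a protein of contractile smooth muscle, had 10.09, 9.79, 9.93, 10.09, 10.17 and 10.29. It was below 0 h at 6 and 12 h and above it by 0.21 at 24 h, so its mean difference was -0.03 ± 0.19 (limma adjusted p = 0.95).

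Myh11, the smooth muscle myosin heavy chain, had log2 values of 11.23, 11.02, 11.36, 11.51, 11.78 and 11.62 at 0, 6, 12, 15, 18 and 24 h. It was 0.20 below 0 h at 6 h and 0.56 above it at 18 h, and the slope of 0.62 ± 0.19 per 24 h did not pass (limma adjusted p = 0.18). Mylk, the myosin light chain kinase, had 11.63, 11.74, 12.02, 12.01, 12.15 and 12.08, all progesterone values above 0 h. Its mean difference of 0.37 ± 0.15 did not pass (limma adjusted p = 0.24). Des, or desmin, the intermediate filament that ties contractile units together, had 8.56, 8.89, 8.98, 9.13, 9.24 and 9.27, each array above the one before. Its mean difference was 0.54 ± 0.17 (limma adjusted p = 0.14) and its slope 0.72 ± 0.15 per 24 h (adjusted p = 0.087), and neither passed.

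**Figure D3:**
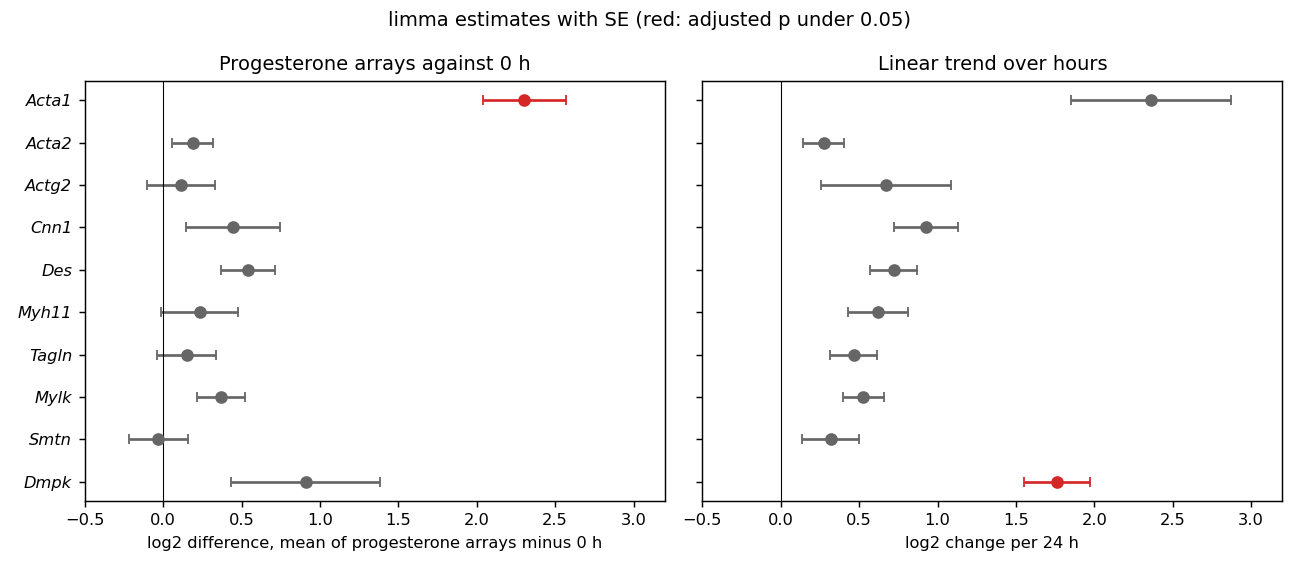
Estimates with SE (bars) from limma for the 10 genes: left, the mean of the progesterone arrays minus 0 h (x axis, log2), right, the slope (x axis, log2 per 24 h); red marks an adjusted p under 0.05 over all probe sets tested. Acta1 at 2.30 is red on the left and Dmpk at 1.76 on the right, and Actg2 rests on 3 arrays.

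The 6 h array set the lower end for several members. At 6 h 5 of 10 were above 0 h, against 39.7% of all analysed probe sets, whose median was -0.05. The other 5, namely Actg2, Cnn1, Myh11, Tagln and Smtn, were below 0 h by 0.10 to 0.30. From 6 to 12 h 10 of 10 members went higher, by a median of 0.29, against 64.3% of all probe sets. From 12 to 15 h 7 of 9 went higher, against 54.8% of all, and from 15 to 18 h 9 of 9, by a median of 0.14, where 30.4% of all probe sets did and the median of all was -0.08. From 18 to 24 h 3 of 9, Des, Smtn and Dmpk, went higher and 6 lower, where 60.1% of all probe sets went higher. Counts from 6 to 12 h and from 15 to 18 h were equal under quantile normalization and median centring. The count from 12 to 15 h was 6 of 9 under centring, and that from 18 to 24 h was 2 of 9 under both, where Des turned. The mean of 18 and 24 h exceeded 6 h in each of the 9 members measured there, from 0.24 for Acta2 to 1.33 for Dmpk. Dmpk alone was past 2-fold, against 0.676% of all probe sets. The highest value lay at 18 h for 6 members and at 24 h for 3. These arrays share their 0 h and 6 h references, and the members share 1 RNA pool per time.

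At 12 h 9 of 10 members were above 0 h, and 9 of 9 at 15, 18 and 24 h. Smtn and Tagln were below 0 h at 15 h under quantile normalization, Tagln also at 12 h, and Smtn under median centring at 15 h. The median difference of the members other than Acta1 was -0.10, 0.34, 0.33, 0.54 and 0.42 at 6, 12, 15, 18 and 24 h. Over all analysed probe sets the median was -0.05, 0.03, 0.03, -0.04 and 0. At an unadjusted p under 0.05, 3 members were higher in the comparison against 0 h and 7 in the trend, against 8.09% and 8.41% of all probe sets. Without the 6 h array 4 members, Acta1, Cnn1, Des and Mylk, passed against 0 h (limma adjusted p = 0.0018, 0.040, 0.043 and 0.029). In that fit 4.64% of 7688 probe sets were called higher, so the count of calls over all probe sets was larger too.

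A wider list of 40 names of smooth muscle contractile and cytoskeletal genes had 27 on the array and 21 analysed. With 1 probe set per gene, 0 of 21 were called in either limma fit, as against 56 higher and 113 lower of 5915 genes over 0 h and 12 and 7 in the trend. The largest mean differences were those of Cnn2, Pdlim3, Tpm2 and Cnn3. Cnn2, a calponin of non-muscle cells, had a mean difference of 0.66 ± 0.16 (adjusted p = 0.076), Pdlim3, an actinin-binding LIM protein, 0.55 ± 0.23 (adjusted p = 0.24), Tpm2, a tropomyosin, 0.49 ± 0.14 (adjusted p = 0.099) and Cnn3, another calponin, 0.42 ± 0.15 (adjusted p = 0.19, all limma). The list's median difference was 0.06, 0.13, 0.21, 0.18 and 0.28 at 6, 12, 15, 18 and 24 h. Vcl, or vinculin, which anchors actin at adhesions, rose by 0.95 ± 0.17 on its second probe set (limma adjusted p = 0.031) and had 0.40 ± 0.15 on the brighter one (adjusted p = 0.19). That call was lost without 12, 15, 18 or 24 h (adjusted p of up to 0.093), under a floor at the 60th percentile and without a filter on low values. The probe sets of Myl9 and Flna, light chain and filamin of smooth muscle, were below the floor on all arrays.

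Regulators of the smooth muscle program gave no call among 12 analysed of 20 names listed, and their median lay between -0.26 and -0.07. Hopx, an atypical homeodomain protein, had the largest mean difference, 0.80 ± 0.32 (limma adjusted p = 0.23), with 1.31 at 6 h. Klf4, a repressor of the smooth muscle program, had differences of 0.55 at 6 h and -1.01 at 18 h (mean -0.39 ± 0.47, adjusted p = 0.72). Fhl1, a LIM protein of muscle, had -0.41 ± 0.22 (adjusted p = 0.36) on its brighter probe set and the opposite sign, 0.12 ± 0.26 (adjusted p = 0.85), on the other, and Gata6, a transcription factor of smooth muscle, -0.31 ± 0.16 (adjusted p = 0.35). Srf and Myocd had no probe set with that symbol alone and were not analysed here. Of 10 analysed genes of myometrial contraction, 1 was called. Ptger3, a prostaglandin E receptor, rose in the trend (limma adjusted p = 0.046) from a floored value at 0 h to at least 1.07 above it at 24 h. It passed in 1 of 6 fits with an array left out, that without 0 h, and not under quantile normalization or median centring. Gja1, the gap junction protein connexin 43, had a mean difference of 0.17 ± 0.16 (limma adjusted p = 0.64).

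Other genes of striated muscle, the tissue whose actin Acta1 is, were in part below the floor and in part well above it. Among those above it on all 6 arrays, Actc1 lay between 8.43 and 9.51 and Myh4 between 7.68 and 8.09. Of 43 names 40 were on the array, and 19 of these were below the floor on all 6 arrays. Among the 19 were the fast and embryonic myosins Myh1, Myh2, Myh3 and Myh8, the troponins Tnnt3 and Tnnc1, myoglobin (Mb) and the light chain Myl1. Of all probe sets that were not controls, 7731 of 12422 passed the filter on low values. Myl9 and Flna of smooth muscle were below the floor as well, so such a value does not show that a transcript is absent. The summed linear signal of the 40 striated muscle genes, which weighs the brightest probe sets most, was 5455 at 0 h. It was 5274 to 6563 on the progesterone arrays. At 6 h, where Acta1 was 1.88 higher, the median of the 21 analysed was -0.08, and it was 0.17 at 24 h. Over all progesterone arrays 15 of the 21 had a mean difference above 0 and 6 below it. The highest were Tnni2, Actc1 (0.71), Pygm and Tnnt1, a slow troponin (0.33), and the lowest Myh4, a fast myosin (-0.22). Of other genes that define skeletal muscle, the transcription factor Myod1 had -0.16, and the creatine kinase Ckm was below the floor at 0, 6 and 12 h and at most 0.09 above it afterwards. None of the 21 was called against 0 h and 2 rose in the trend: Tnni2, a fast troponin, at the floor at 0 and 6 h and at least 1.97 above it at 24 h, and Pygm, muscle glycogen phosphorylase, at the floor at 0 h and at least 0.94 above it at 24 h (limma adjusted p = 0.046 for both). Each passed in 1 of 6 fits with an array left out, that without 0 h, and not under quantile normalization or median centring. Floored values narrow the spread, so these p-values can be too small.

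**Figure D4:**
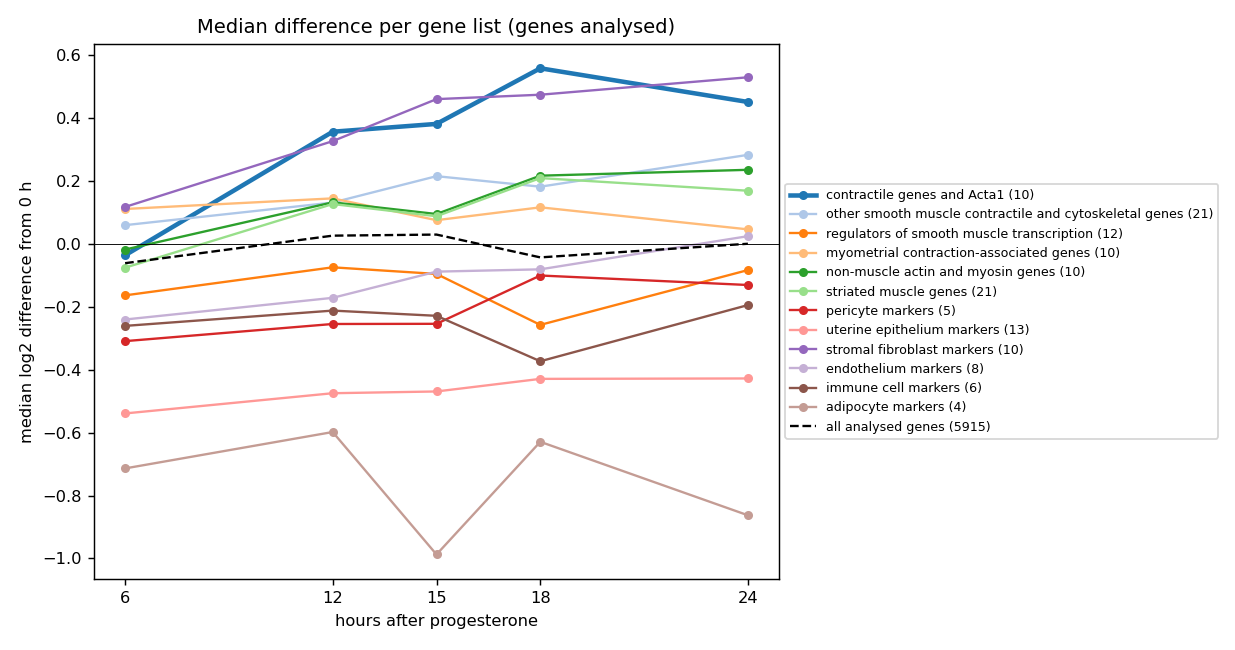
Median log2 difference from 0 h (y axis) at each time (x axis) for the fixed gene lists, with the number of genes analysed in brackets and the median of all 5915 analysed genes dashed. The 10 contractile genes go from -0.04 at 6 h to 0.56 at 18 h, and epithelium markers stay between -0.54 and -0.43.

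Markers of other cells of the uterus moved on the same arrays. Epithelium markers had medians of -0.54 to -0.43, with 3 of 13, Krt18, Epcam and Ltf, called lower against 0 h and Krt7 in the trend. Cldn3, Cldn7 and Cldn4 had mean differences above 0 (0.43, 0.15 and 0.13), and the others on that list below it. The summed linear signal of the list was 11933 at 0 h and 8401 to 9786 after progesterone. Stromal fibroblast markers had medians of 0.12 to 0.53, with Col1a1 and Col3a1, 2 of 10, called higher in the trend. Their sum was 16678 at 0 h and 17770 to 23076 afterwards. Both sums weigh the brightest probe sets most. Thy1, Lum and Dcn had mean differences below 0 (-0.54, -0.40 and -0.25), and the others analysed on the stromal list above it. Endothelium markers had medians of -0.24 to 0.02 with 1 of 8, Cldn5, called lower. Cldn5 had a mean difference of -1.29, the next lowest was Vwf at -0.56, and Kdr and Tie1 were above 0 (0.12 and 0.02). Over all 5915 analysed genes 56 were called higher and 113 lower against 0 h, and 12 and 7 in the trend. Pericyte markers had medians of -0.31 to -0.10 with 0 of 5 called. Immune markers had -0.37 to -0.19 and adipocyte markers -0.99 to -0.60, with 0 of 6 and 0 of 4 called. Lpl had no value at 0 h, so the adipocyte medians rest on Adipoq, Retn and Lep and equal the values of Retn. Mean differences of Adipoq, Retn and Lep were -1.68, -0.76 and -0.10. Non-muscle actin and myosin genes had medians of -0.02 to 0.23, with 0 of 10 called; Cfl1, the actin-severing cofilin, was furthest at 0.71 ± 0.20 (limma adjusted p = 0.097). With an array left out, Epcam passed in 5 of 5 fits, Cldn5 in 4, Krt18 in 2 and Ltf in 1, and Krt7 and the Col3a1 probe set used in 1 of 6 and Col1a1 in 2. Krt7 and that Col3a1 probe set also lost their calls under quantile normalization and under median centring. Without a filter on low values, Krt18, Ltf, Krt7, Col3a1 and Col1a1 lost theirs. Whether these marker differences come from cell make-up, and whether it has a part in the differences of the contractile genes, was not tested.

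By pattern, the genes nearest to Acta1 were found among 5301 genes above the floor on all arrays, by the root mean square distance between their differences from 0 h at the 5 times. They were Gstm2, a glutathione transferase (distance 0.31), Sec23b, a vesicle coat protein (0.34), Nde1, a partner of dynein (0.36), Igf1, a growth factor (0.56), and Pla2g10, a secreted phospholipase (0.60). These 5 had differences of 1.61 to 3.10 at the single times, and each was lower at 18 h than at 15 h, where Acta1 had 2.52 at 15 h and 2.55 at 18 h. Other probe sets of Gstm2 and Igf1 had median differences of 0.10 and 0.08 and so did not share the pattern. That of Sec23b had 0.13, with differences of 0 at 6 and 18 h, where its values were set to the floor. It therefore cannot show whether the pattern is shared. Nearest to Dmpk were Mfap2, a microfibril protein (0.20), the collagen Col1a2 (0.24), Pfn2, a profilin (0.28), the collagen Col3a1 (0.31) and Bzw2 (0.34). A second Col1a2 probe set had a median difference of -0.06 and did not share the pattern, while those of Col3a1 had 1.44 and 1.02. Mfap2 and Col3a1 passed the trend (limma adjusted p = 0.046 and 0.048). All comparisons share the 0 h array, and nearness says only that the values ran alike on these arrays.

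**Figure D5:**
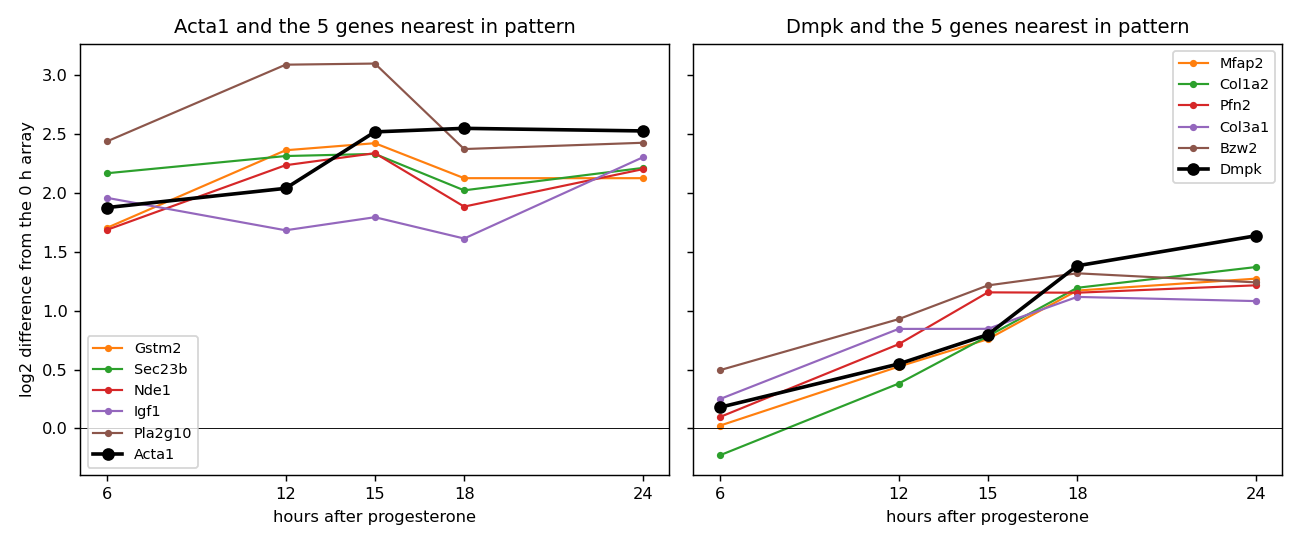
Log2 difference from 0 h (y axis) against hours after progesterone (x axis) for Acta1 (left) and Dmpk (right) in black with the 5 genes nearest in pattern in colour. Acta1 and its neighbours are already at 1.69 to 2.44 at 6 h, and Dmpk and its neighbours run from between -0.23 and 0.50 at 6 h to between 1.08 and 1.64 at 24 h.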

How the data were processed

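RNA of 6 pools of mouse uterus was hybridized to 1 Affymetrix array each, per the labels, which give no more on the processing. The deposited numbers are expression levels on a log2 scale. The base was read from the values: powers of 2 under 2000 were whole in the 4th decimal, to 0.05 of its unit, in 99.8% of cases, against 6.42% with the natural base. Which software, background correction, normalization or centring made them is stated in no label. All columns share a lower limit of 5.39. Of 12487 probe sets, 65 controls were left out; 121 values were missing and stayed so. The 2% trimmed means lay within -4.10% and 3.42% of their median, so the deposited scaling was kept.

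Values below the 40th percentile (6.60) were set to it, and the 7731 probe sets above it on at least 2 arrays were analysed. limma 3.58.1 in R 4.3.3 (lmFit, eBayes, trend = TRUE) set the 5 progesterone arrays against 0 h and fitted hours as a number, each with 4 residual degrees of freedom where all arrays had values. Benjamini-Hochberg adjustment ran over the 7724 and 7731 probe sets tested. Nothing says that arrays are independent repeats of a condition, so p-values measure the spread between times. A gene is said to have risen or fallen only at an adjusted p under 0.05. The fits were run on simulated data with the same spread on every array. Such data cannot check what is assumed of the lone 0 h array.

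Names came from the platform annotation; 10833 probe sets had 1 symbol, 396 several and 1193 none. The text names all members, list genes that were called or had the 4 largest mean differences, markers that define striated muscle, and the 5 nearest genes. Krt8, Actb, Actg1, Gja1, Myl9 and Flna were added after their values were seen. So were the markers Cldn3, Cldn4, Cldn7, Thy1, Lum, Dcn, Vwf, Kdr, Tie1 and Lpl, and second probe sets of Vcl, Fhl1, Actb and the nearest genes. The members and lists were chosen with earlier results of these data known. Alternatives were other floors, no floor, no filter, quantile normalization, median centring, no intensity trend, log2 hours and each array left out.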

Additional observations from a re-analysis of the deposited data

How the results depend on the processing

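No paired analysis was possible because each group is 1 array with no replicate number in the labels. Acta1 was called against 0 h in every alternative run, with differences of 2.24 to 2.41, while its trend passed in log2 of hours plus 1 alone. The Dmpk trend kept its direction in every fit. It did not pass without a filter on low values (limma adjusted p = 0.20), under quantile normalization (0.051) or on log2 hours (0.086). With the 0 h array left out it passed, and with any progesterone array left out it did not, as given above. Smtn turned sign against 0 h without 6 h (0.037) and without 12 h (0.0012), at adjusted p of 0.902 and 0.998, in a range of -0.089 to 0.037 over the arrays left out.

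Probe sets called against 0 h were 69 higher and 139 lower, and 22 higher with no filter; with an array left out they were 13 to 357 higher and 30 to 410 lower. In the trend, 15 were higher and 9 lower. The counts were 29 and 24 with no floor, 0 and 0 with no filter (1219 at an unadjusted p under 0.05), 5 and 5 under quantile normalization, 7 and 5 under median centring, 82 and 174 on log2 hours, and 5 lower with the floor at the 60th percentile. With an array left out they were 0 to 79 higher and 0 to 68 lower. Members called were 1 against 0 h and 1 in the trend; with an array left out these were 1 to 4 and 0 to 1. In the trend they were 0 with no filter, 0 under quantile normalization and 2, Acta1 and Des, on log2 hours. With all probe sets in place of 1 per gene, the wider smooth muscle list had 1 call against 0 h, Vcl, and stromal markers 4 in the trend. Under other floors and scalings, 253 of 253 differences of members between times moved by less than 0.19, the SD over probe sets of 24 h minus 18 h. The counts of members by sign and the means of 18 and 24 h minus 6 h were put through other scalings as alternatives chosen after seeing the data.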
